A study of Homo sapiens with 8 samples.

Results

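The 10 neuronal cytoskeleton and growth cone genes described here are STMN1, STMN2, STMN3, STMN4, GAP43, DCX, MAP2, MAPT, NEFL and NEFM. Their products shape the microtubules and intermediate filaments of young neurons, except GAP43, a membrane-bound protein of the growth cone. The genes were chosen by name and found in the count table through their Ensembl identifiers. This gave 10 of 58787 gene rows, and all 10 passed the filter on low counts. RNA was taken from IMR32, an established human neuroblastoma cell line labelled wild type and neuroblast, after 6 h with CR31B at its IC50 (4 libraries) or with the vehicle, 0.1% DMSO (4 libraries). The value of the IC50 is not given in the sources used here. CR31B is a rocaglate, a class of compounds that clamp the RNA helicase eIF4A onto messenger RNA. The replicate 1 library of each group was sequenced paired-end and replicates 2 to 4 single-end, per the labels. The labels call the replicates biological and do not say whether they came from separate thaws, so p-values measure the spread between these libraries.

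Growing axons advance by adding and removing tubulin at the plus ends of microtubules in the growth cone. Stathmins bind free tubulin and favour disassembly, while doublecortin, MAP2 and tau bind the polymer and stabilise it. Neurofilaments are intermediate filaments that fill the axon later and set its calibre. Neuroblastoma cells derive from sympathetic precursors and express many of these genes, which makes them markers of how neuronal a neuroblastoma line is.

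Total counts ranged from 43687828 to 64715535 per library, and the 10 genes took 0.185% to 0.262% of them. Levels are given as CPM, the count of a gene relative to the library's TMM-scaled total, in the usual unit of that name, and differences as log2 of CR31B over DMSO, with the standard error (SE) of the fit. The test was edgeR's quasi-likelihood test, its p-values were adjusted by Benjamini and Hochberg's method over all tested genes, and a gene with a value under 0.05 was called. Of the 10 sympathetic neuroblast markers listed, all 10 were above 1 CPM in every library, with TH, the first enzyme of catecholamine synthesis, lowest at a mean of 2.43 CPM. Of 8 Schwann cell and glial markers 1 was above 1 CPM in every library, and SOX10 and GFAP had no count. Of 8 fibroblast and mesenchymal markers 3 were above 1 CPM in every library, and PRRX1 had no count. The summed level of the neuroblast markers ranged from 3055 to 4384 CPM in the libraries labelled CR31B and from 3052 to 4139 CPM in those labelled DMSO. The sums ran from 3.83 to 6.29 and from 3.04 to 8.57 CPM for the glial list, and from 51.2 to 81.7 and from 51.2 to 67.4 CPM for the mesenchymal list. All of these ranges include replicate 1 as well as replicates 2 to 4, and changes of the markers within the single-end libraries are given below. The part of these markers in the results was not tested.

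The 10 genes differed widely in level. Per kilobase of annotated exon, STMN1 was highest with a mean of 226.5 CPM per kb (range over 8 libraries 178 to 271.5). It was followed by STMN3 with 55.9, NEFM with 33.1, DCX with 19.5, NEFL with 15.2, STMN2 with 13.2, MAP2 with 10.3, GAP43 with 9.63, MAPT with 1.09 and STMN4 with 0.732 CPM per kb. From STMN1 down to NEFL the ranges of neighbours did not overlap, and each of those steps held in 8 of 8 libraries. The neighbours NEFL and STMN2, STMN2 and MAP2, MAP2 and GAP43, and MAPT and STMN4 had overlapping ranges. GAP43 and MAPT were the other clear step, with at least 7.20 CPM per kb for the first and at most 1.57 for the second. Exon length is the union of all annotated exons, so genes with many alternative exons such as MAPT (14920 bases) and MAP2 (11559 bases) have their level per kilobase lowered by exons that these cells may not use.

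**Figure D1:**
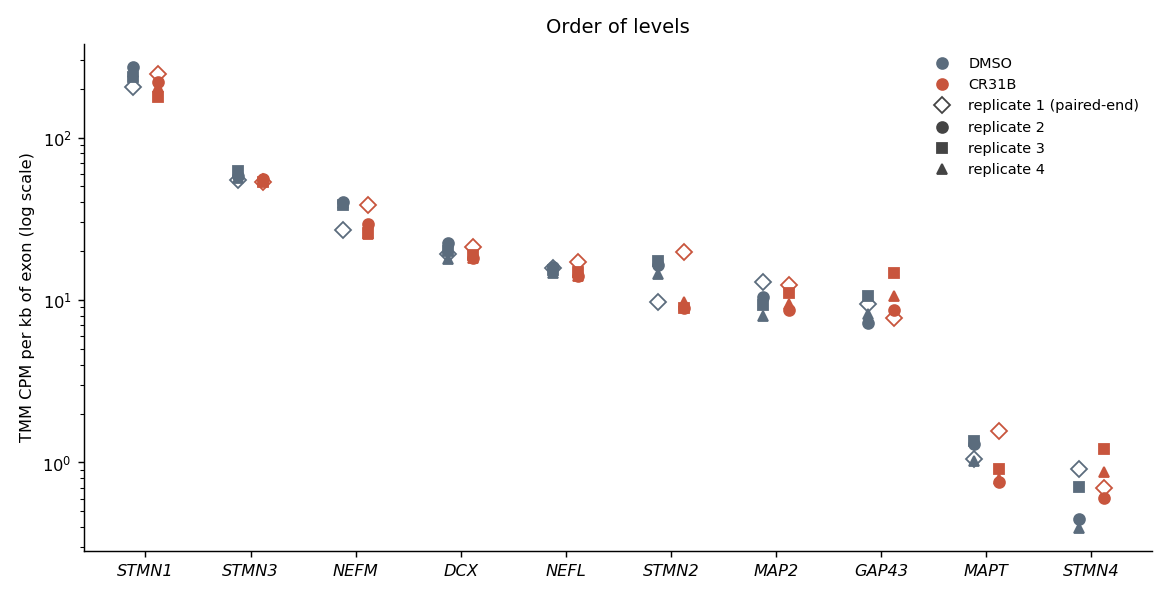
Level of each gene in CPM per kilobase of exon on a log axis, 1 point per library, DMSO in grey and CR31B in red, with open diamonds for the paired-end libraries. STMN1 lies above every other gene in all 8 libraries, and MAPT and STMN4 lie lowest.

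Under the labels as given, 0 of the 10 genes differed between CR31B and DMSO across all 8 libraries. Of all 16518 tested genes 0% were called in that comparison, and 205 had an unadjusted p under 0.05, none of them among the 10. The adjusted p of the 10 genes ranged from 0.707 to 0.899, and DESeq2 and limma voom also called 0 of them. Within the 6 single-end libraries 5 of the 10 genes were called, against 41.3% of 16696 tested genes, so the share of genes called was near the background. Of the 5 genes, STMN1, STMN2, MAPT and NEFM were lower with CR31B and STMN4 was higher, against 17.6% of tested genes called lower and 23.8% called higher. Under upper quartile scaling 7 of the 10 genes were called lower and 0 higher, beside 4509 lower and 3010 higher among all 16696 tested genes. With total counts 6 of the 10 were lower and 0 higher, beside 4194 and 3181 among all tested genes. The median log2 fold change of the 10 genes was -0.12, beside -0.0070 over all tested genes. The median of the 10 genes was -0.22 with upper quartile scaling and -0.20 with total counts. These scalings also moved the median of all genes down, to -0.10 and -0.085, so the kept direction is no check on the result. With upper quartile scaling 40% of the called genes were higher, against 57.5% with TMM, with total counts 43.1% and with offsets for GC content and length 46.9%.

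The pair 1 difference had the opposite sign to the single-end fold change in 9 of the 10 genes, STMN3 being the exception. In DCX pair 1 shared its sign with pair 4, and in MAP2 with pair 2. Pairs 2, 3 and 4 had the same sign in 8 of the 10 genes, DCX and MAP2 excepted, against 69.8% of tested genes. The groups overlapped in all 10 genes over 8 libraries, where 0.66% of tested genes showed no overlap. A test of whether the difference depended on layout called 4 of the 10 genes, STMN1, STMN2, MAPT and NEFM (edgeR interaction term, 42.5% of 16518 tested genes called). Among 6882 genes called in the single-end libraries, pair 1 ran against the single-end fold change in 98.9%. The same share over all tested genes, called or not, was not measured. Layout, an exchange of the labels of the 2 replicate 1 libraries and any other property of these libraries cannot be told apart. With those labels exchanged every pair 1 difference would change sign, and the result over 8 libraries rests on the labels as given. In the interaction test the paired-end libraries, 1 in each group, add nothing to the estimate of spread. The fit of 8 libraries has no interaction term, so there the pair 1 difference does enter the spread. edgeR's common coefficient of variation between replicates was 16.3% in that fit and 7.46% in the single-end fit. The values of pair 1 below are single differences with no replicate check. The words higher, lower, rose and fell below refer to the single-end libraries unless pair 1 is named.

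**Figure D2:**
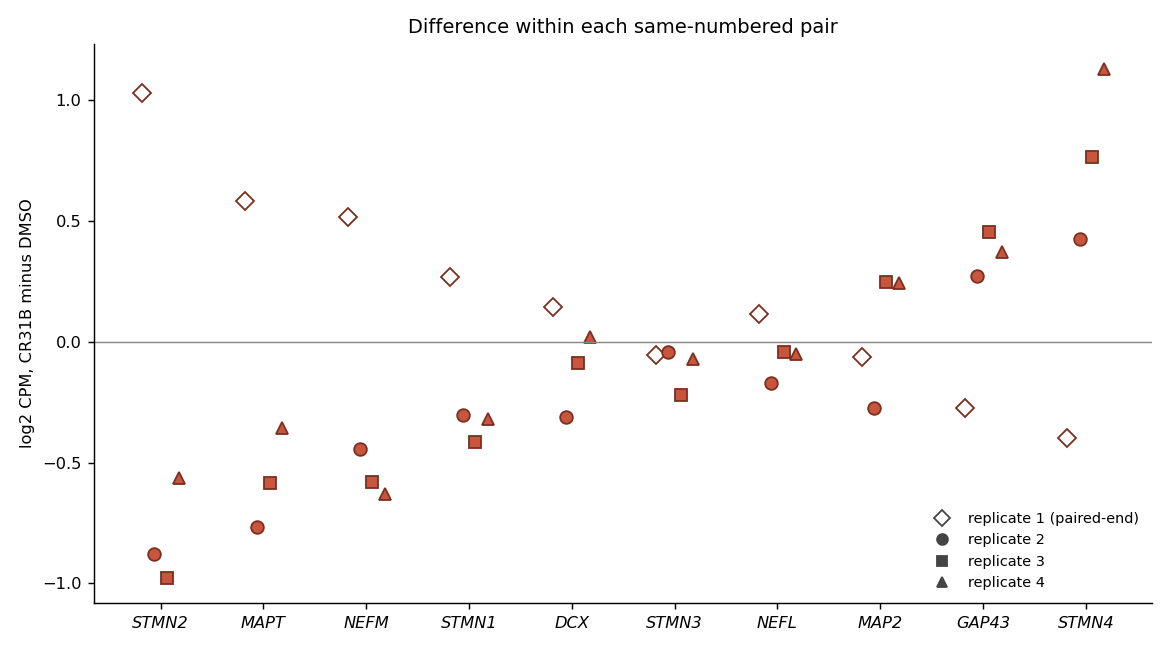
Difference in log2 CPM, CR31B minus DMSO, within each same-numbered pair of libraries, with genes ordered by their single-end fold change. Open diamonds are the paired-end pair, which lies on the other side of 0 from the single-end fold change for every gene but STMN3.

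The stathmin family gave the widest split among the genes, with STMN2 and STMN1 lower, STMN3 not called and STMN4 higher. STMN2 encodes the neuronal stathmin SCG10, which is anchored to membranes of the growth cone by palmitoylation. Its position is chromosome 8, 79610814 to 79666175, plus strand (GENCODE 29, GRCh38, as for all genes here). In the libraries labelled CR31B it had 46.8, 21.0, 21.0 and 23.0 CPM for replicates 1 to 4, and in those labelled DMSO 22.9, 38.5, 41.3 and 34.1 CPM. Replicates 2 to 4 did not overlap. In replicate 1 the order was turned, with the library labelled CR31B the highest of all 8 and the library labelled DMSO below the other 3 of its group. Across the single-end libraries STMN2 fell from 38.0 ± 3.65 to 21.7 ± 1.18 CPM (SD, n = 3) (log2 fold change -0.81 ± 0.079, edgeR adjusted p 2.66e-05). Over all 8 libraries its log2 fold change was -0.37 ± 0.29 and not called (adjusted p 0.707, edgeR, Benjamini-Hochberg). Pair 1 differed by 1.03 in log2 CPM. The interaction with layout was 1.84 ± 0.16 (edgeR adjusted p 1.20e-05), the largest among the 10 genes. RNA from a whole culture cannot tell fewer cells that express a gene from less RNA per cell, and this holds for every level given here.

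STMN1 encodes the ubiquitous stathmin, which also serves dividing cells by destabilising microtubules before mitosis. Its position is chromosome 1, 25884181 to 25906991, minus strand. It was the most abundant of the 10 genes and ranked 32 by mean CPM among the 16518 tested genes. In order of replicate number the CR31B libraries had 1533, 1377, 1116 and 1273 CPM and the DMSO libraries 1274, 1700, 1486 and 1589 CPM. The single-end groups did not overlap. The mean fell from 1592 ± 107 to 1255 ± 132 CPM (SD, n = 3) (log2 fold change -0.34 ± 0.081, edgeR adjusted p 0.00694). Pair 1 differed by 0.27. The processed pseudogene STMN1P1 had 7 to 35 counts in a library, against 53171 to 105142 for STMN1.

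STMN3, which encodes a neuronal stathmin with a similar membrane anchor (chromosome 20, 63639705 to 63657682, minus strand), varied little. It had 160.7, 169.6, 161.4 and 162.8 CPM with CR31B and 166.9, 174.9, 188.2 and 171.1 CPM with DMSO. The single-end groups did not overlap, which held for 5 of the 10 genes, all lower with CR31B, against 52.1% of tested genes, or 24.4% lower with CR31B, and the order was the same in all 4 pairs. Its log2 fold change of -0.11 ± 0.053 was not called (edgeR adjusted p 0.115). It was called lower under upper quartile scaling (-0.21, adjusted p 0.00818, edgeR) and total count scaling (-0.19, adjusted p 0.0145, edgeR).

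The upstream window of STMN1, the most abundant of the genes, is shown with that of STMN3, the relative next to it in level, for reference. The difference between their fold changes was not tested. RefSeq upstream windows (GRCh38.p14) matched 5 of the 10 genes, STMN1, STMN3, GAP43, DCX and MAP2. The letters run 5′ to 3′ on the gene's strand, from 250 bases before a RefSeq start up to the first base that GENCODE annotates as exon. Capitals mark CACGTG, the E-box that MYC family proteins bind, which is its own reverse complement. The STMN1 stretch is chr1:25906467-25906669 (minus strand) and the STMN3 stretch chr20:63652767-63653016 (minus strand).
STMN1: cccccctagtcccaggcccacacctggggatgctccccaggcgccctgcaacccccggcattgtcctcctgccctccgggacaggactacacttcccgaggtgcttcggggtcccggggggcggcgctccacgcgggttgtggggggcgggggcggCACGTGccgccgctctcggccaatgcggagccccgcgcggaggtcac
STMN3: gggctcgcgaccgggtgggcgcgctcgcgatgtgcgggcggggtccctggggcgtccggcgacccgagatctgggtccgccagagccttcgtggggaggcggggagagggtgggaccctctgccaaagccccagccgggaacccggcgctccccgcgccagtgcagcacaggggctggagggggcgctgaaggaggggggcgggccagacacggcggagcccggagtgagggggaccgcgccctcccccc
The 250 bases before this STMN1 start held 2 matches to CACGTG, 1 of them in the stretch shown, and those of STMN3 held 0. RefSeq gives 3 windows for STMN1, and the other two held 0 matches. At least 1 match stood in 6.3% of 35116 RefSeq windows of the same length. A match describes letters only and says nothing of binding in these cells.

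STMN4, a brain stathmin, was the scarcest of the genes, with 67 to 231 counts in a library (chromosome 8, 27235323 to 27258420, minus strand). It had 2.29, 2.00, 3.99 and 2.87 CPM in the libraries labelled CR31B and 3.02, 1.49, 2.34 and 1.30 CPM in those labelled DMSO. The single-end groups overlapped, and each of pairs 2 to 4 was higher with CR31B, by 0.42, 0.76 and 1.13 in log2 CPM. The fitted log2 fold change was 0.78 ± 0.27 (edgeR adjusted p 0.0414). This call was lost without the library labelled CR31B replicate 3 (0.49, adjusted p 0.151) or 4, or DMSO replicate 2 or 4. It was also lost under upper quartile scaling (0.69, adjusted p 0.0733), total count scaling (0.70, adjusted p 0.0703), a filter at 1 CPM (0.75, adjusted p 0.0501) and limma voom (0.76, adjusted p 0.0509), which makes 8 of 16 settings. DESeq2 kept it (0.77, adjusted p 0.00774). So did the replicate block, which fits same-numbered libraries as pairs (0.77, edgeR adjusted p 0.00138). The adjusted p over all alternatives ranged from 3.30e-05 to 0.151.

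Of the neurofilament genes, NEFM was called lower and NEFL was not called, and both were below 0 in each of pairs 2 to 4. NEFM encodes the medium subunit (chromosome 8, 24913012 to 24919098, plus strand) and had 167.8, 129.5, 112.8 and 112.4 CPM in the libraries labelled CR31B. The libraries labelled DMSO had 117.5, 176.0, 168.5 and 174.0 CPM. The 3 single-end DMSO libraries lay close together and above all 3 single-end CR31B libraries. NEFM fell from 172.8 ± 3.88 to 118.2 ± 9.75 CPM (SD, n = 3) (log2 fold change -0.55 ± 0.062, edgeR adjusted p 6.79e-05). Pair 1 differed by 0.51. Of the exonic bases of NEFM 38.9% are shared with AF106564.1 on the opposite strand, which had 649 to 1206 counts against 4903 to 11377 for NEFM. The name of the deposited counts holds the word reverse, and the sources used here say no more of the strand setting. Whether reads of the shared part were told apart was not tested. AF106564.1 itself was at -0.23 (edgeR adjusted p 0.0357).

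NEFL, the light subunit on which the other neurofilament subunits assemble (chromosome 8, 24950955 to 24957110, minus strand), had 73.9, 61.2, 64.5 and 61.1 CPM in the libraries labelled CR31B and 68.2, 68.9, 66.3 and 63.3 CPM in those labelled DMSO. Of its exonic bases 11.3% are shared with AC107373.2 on the opposite strand, which had 12 to 42 counts. AC107373.2 itself was at 1.08 (edgeR adjusted p 0.00856). The NEFL log2 fold change of -0.087 ± 0.053 was not called (adjusted p 0.216, edgeR, Benjamini-Hochberg), and the single-end groups overlapped. It was called lower under upper quartile scaling (-0.18), total count scaling (-0.16) and offsets for GC content and length (-0.19). The ratio of NEFM to NEFL counts does not depend on library scaling. It was 2.27, 2.12, 1.75 and 1.84 in the libraries labelled CR31B and 1.72, 2.55, 2.54 and 2.75 in those labelled DMSO. In the single-end libraries it was 1.90 ± 0.19 with CR31B and 2.61 ± 0.12 with DMSO (SD, n = 3), without overlap (exact two-sided permutation p 0.1, the smallest that 3 against 3 can give). Over all 8 libraries the exact two-sided permutation p was 0.229, or 0.457 adjusted over the 4 ratios examined.

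MAPT encodes tau, the microtubule-associated protein of axons (chromosome 17, 45894382 to 46028334, plus strand). It had 23.4, 11.3, 13.6 and 11.8 CPM in the libraries labelled CR31B and 15.6, 19.3, 20.3 and 15.2 CPM in those labelled DMSO. The single-end groups did not overlap, and pair 1 differed the other way by 0.58 in log2 CPM. MAPT fell from 18.3 ± 2.73 to 12.2 ± 1.18 CPM (SD, n = 3) (log2 fold change -0.58 ± 0.12, edgeR adjusted p 0.00264).

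MAP2, which stabilises microtubules of dendrites, was not called (chromosome 2, 209424058 to 209734118, plus strand). It had 142.5, 99.9, 127.9 and 108.6 CPM with CR31B and 148.7, 121.0, 107.9 and 91.7 CPM with DMSO. Pairs 2, 3 and 4 differed by -0.28, 0.25 and 0.24, so they shared no direction, and the fitted value was 0.071 ± 0.11 (edgeR adjusted p 0.629). Both replicate 1 libraries lay above the other 6. The sign of this value turned under upper quartile scaling, total counts and GC and length offsets. The ratio of MAP2 to MAPT counts was 8.84, 9.43 and 9.18 in the single-end CR31B libraries and 6.28, 5.31 and 6.05 in the single-end DMSO libraries, without overlap. In replicate 1 it was 6.10 with CR31B and 9.54 with DMSO. The exact two-sided permutation p for this ratio was 0.1 in the single-end libraries and 0.343 over all 8, or 0.457 adjusted over the 4 ratios.

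DCX encodes doublecortin, which stabilises microtubules in migrating neurons (chromosome X, 111293779 to 111412429, minus strand). It had 216.4, 185.4, 193.0 and 184.9 CPM in the libraries labelled CR31B and 196.1, 230.2, 204.9 and 182.5 CPM in those labelled DMSO. The DMSO libraries of replicates 2 and 4 were themselves the highest and the lowest of the 8. The differences of pairs 2, 3 and 4 were -0.31, -0.087 and 0.019. The log2 fold change of -0.13 ± 0.076 was not called (adjusted p 0.193, edgeR, Benjamini-Hochberg). With offsets for GC content and length it was -0.35 (edgeR adjusted p 0.00529), a change of more than 1.5 times, and it was also called without the library labelled DMSO replicate 4 (-0.20, adjusted p 0.0451). Without DMSO replicate 2 it was -0.044 (edgeR adjusted p 0.638).

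GAP43 encodes a membrane-bound protein of the growth cone that protein kinase C phosphorylates (chromosome 3, 115623324 to 115721490, plus strand). It had 16.2, 18.1, 30.4 and 22.1 CPM in the libraries labelled CR31B and 19.6, 15.0, 22.2 and 17.1 CPM in those labelled DMSO. The replicate 3 libraries were the highest of the single-end libraries in each group, so the groups overlapped although each of pairs 2 to 4 was higher with CR31B, by 0.27, 0.45 and 0.37. The log2 fold change of 0.38 ± 0.18 was not called (adjusted p 0.123, edgeR, Benjamini-Hochberg). With the replicate block the value of GAP43 was 0.37 (edgeR adjusted p 0.000446), so the paired fit called it higher. It was also called without CR31B replicate 2 (0.54) or DMSO replicate 3 (0.55). Without CR31B replicate 3 it was 0.15 (edgeR adjusted p 0.453) and without DMSO replicate 2 it was 0.26 (edgeR adjusted p 0.331). Pair 1 differed by -0.27.

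**Figure D3:**
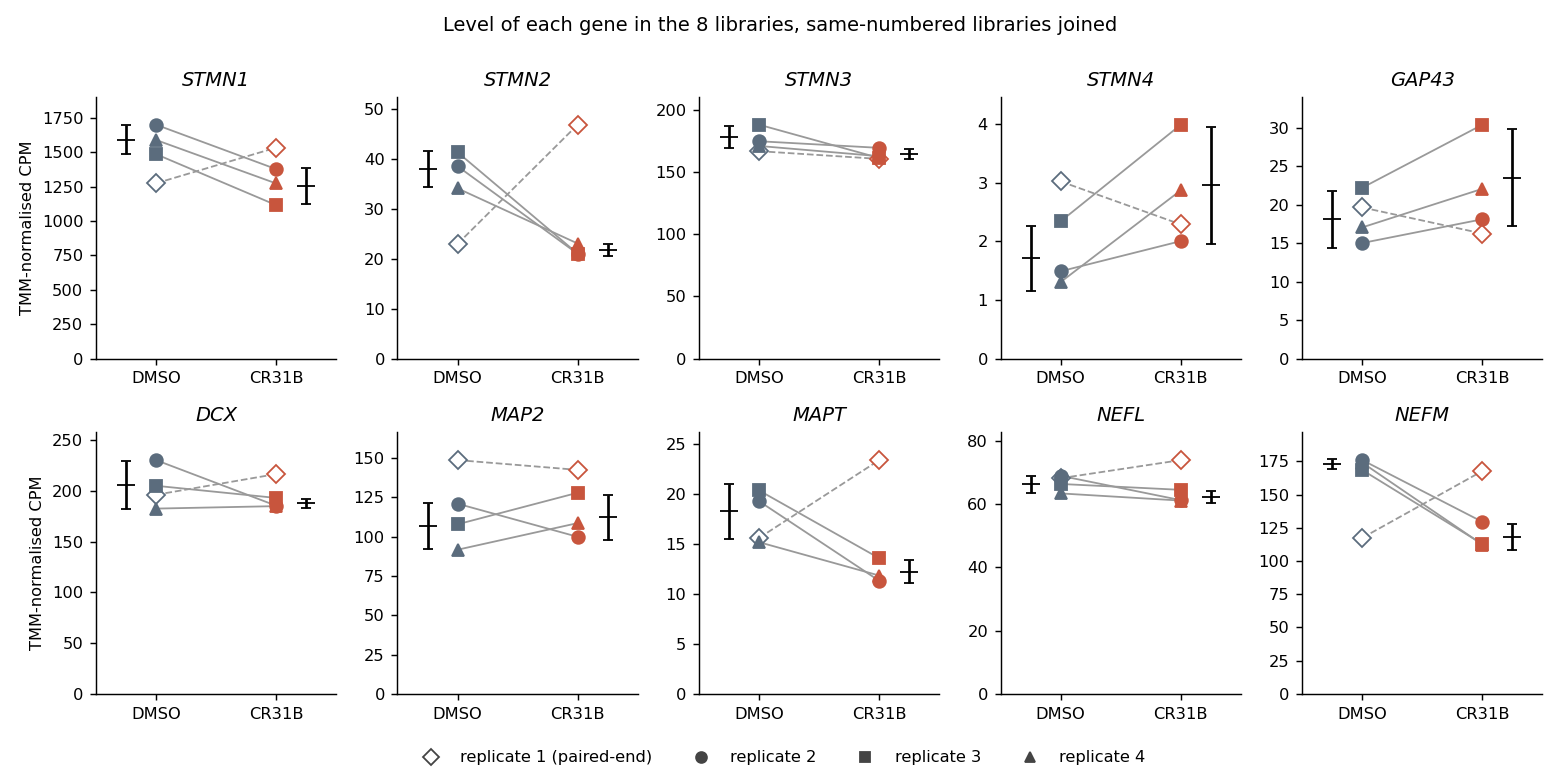
TMM-normalised CPM of each gene in the 8 libraries on axes that start at 0, with lines joining same-numbered libraries (dashed for the paired-end pair, open diamonds) and black bars for the mean ± SD of the 3 single-end libraries. The single-end groups of STMN1, STMN2, STMN3, MAPT and NEFM do not overlap, and the dashed line runs the other way in each of them but STMN3.

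GAP43 stood out in sequence. The stretch shown is the part of the 250 bases before its RefSeq start with the most AGAGAG, a purine repeat of the kind that rocaglates are known to hold eIF4A on, and GENCODE places it in the 5′ untranslated region. It is chr3:115623430-115623459 (plus strand, GRCh38.p14), and capitals mark AGAGAG.
GAP43: caccAGAGAGAGAGggAGAGAGAGAGAGAG
It holds 8 overlapping matches. Searched on the sense strand, the annotated 5′ untranslated regions of GAP43 (366 and 468 bases) held AGAGAG in both transcripts, with up to 23 overlapping matches. Among the other genes it stood in 6 of 6 STMN4 transcripts, 5 of 11 of DCX and 3 of 6 of MAP2, with at most 2 matches in a transcript. STMN1, STMN2, STMN3, MAPT, NEFL and NEFM had none. The motif thus stood in 4 of 10 genes, against 21.9% of 19017 coding genes. Of these 4 genes STMN4 was called and GAP43, DCX and MAP2 were not. The motif was searched after the values were known, so these counts are a description. No match says only that these letters are not in the annotated sequence.

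Stathmins were also compared with each other on counts in the same library. All 4 ratios were picked after the values were known. The ratio of STMN2 to STMN1 counts was 0.0174 ± 0.0019 with CR31B and 0.0240 ± 0.0034 with DMSO in the single-end libraries (SD, n = 3), without overlap. In replicate 1 it was 0.0306 with CR31B and 0.0180 with DMSO. The ratio of STMN4 to STMN2 was 0.0955, 0.190 and 0.125 in the single-end CR31B libraries and 0.0386, 0.0566 and 0.0383 in the single-end DMSO libraries. Each exact two-sided permutation p was 0.1 in the single-end libraries, and over all 8 libraries they were 0.543 and 0.257 (0.543 and 0.457 adjusted over the 4 ratios).

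**Figure D4:**
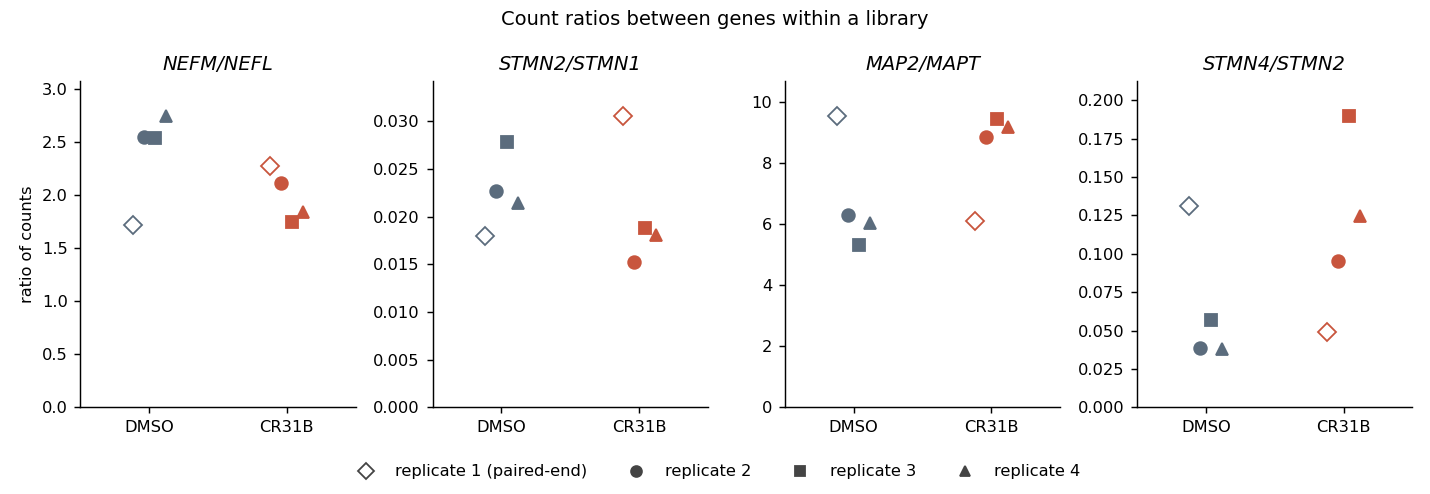
Ratio of counts of 2 genes in the same library, on axes that start at 0, with open diamonds for the paired-end libraries. The NEFM/NEFL ratio lies between 2.54 and 2.75 in the single-end DMSO libraries and between 1.75 and 2.12 in the single-end CR31B libraries.

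STMN1, STMN2, MAPT and NEFM were called lower under each of the 16 alternative settings and omissions tried in the single-end libraries. Their highest adjusted p was 0.0289 for STMN1, 0.000182 for STMN2, 0.0149 for MAPT and 0.000705 for NEFM (edgeR, DESeq2 or limma voom, Benjamini-Hochberg). STMN3, DCX and NEFL were each called lower in 4 settings, GAP43 was called higher in 5, and MAP2 was called in none.

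**Figure D5:**
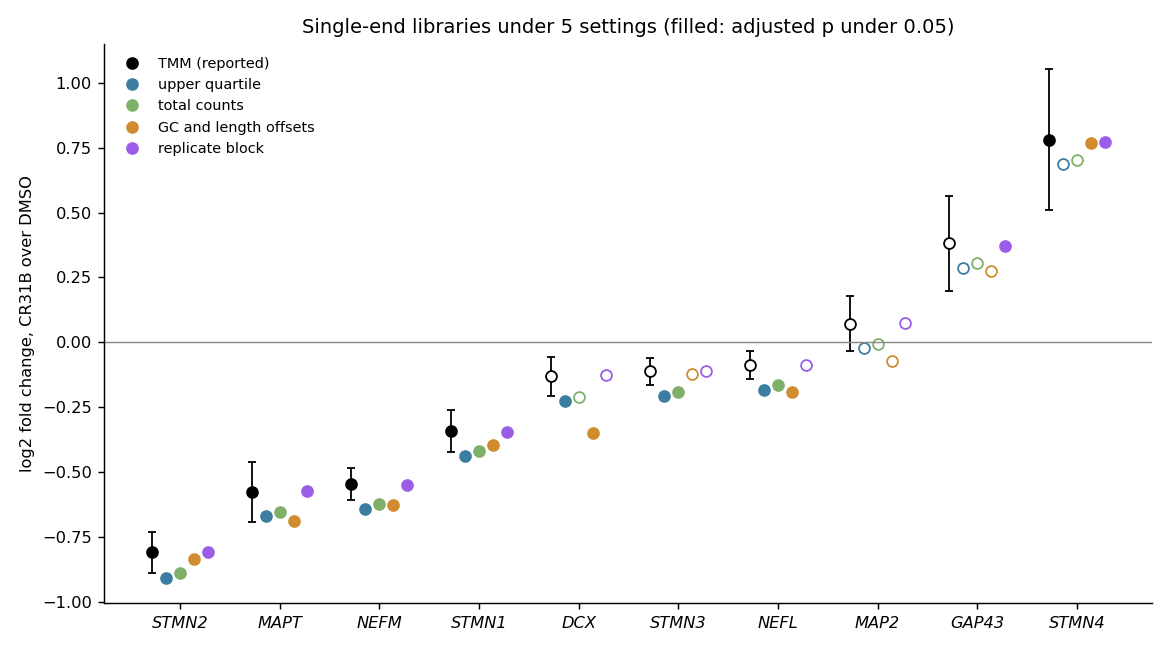
Single-end log2 fold change of each gene, CR31B over DMSO, with TMM (black, bars ± SE) and 4 other settings in colour, filled where the adjusted p was under 0.05. STMN2, MAPT, NEFM and STMN1 stay filled and below 0, and MAP2 lies on both sides of 0.

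The other genes of the same structures were read from lists. For comparison with each list, 23.8% of all 16696 tested genes were called higher and 17.6% lower, with a median of -0.0070. Under upper quartile scaling 3010 of all tested genes were called higher and 4509 lower, with a median of -0.10. With total counts these numbers were 3181 and 4194. Of 9 other intermediate filament genes 2 were called higher and 2 lower, with a median of -0.11. Upper quartile scaling gave 1 higher and 4 lower, and total counts 2 and 4. Of these, NEFH, the heavy neurofilament subunit, had a log2 fold change of -0.47 ± 0.067 and INA, alpha-internexin, -0.29 ± 0.057. VIM, vimentin, had 0.36 ± 0.10 and LMNB1, lamin B1, 0.26 ± 0.051. VIM was not called under upper quartile scaling (adjusted p 0.0549, edgeR).

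Of 28 other microtubule-associated and plus-end genes 10 were called higher and 4 lower, with a median of 0.11, and upper quartile scaling gave 8 higher and 9 lower. PAFAH1B1, which encodes the dynein regulator LIS1, had the largest rise at 1.11 ± 0.047, from a mean level over the 8 libraries of 465 CPM. CAMSAP2, which protects microtubule minus ends, had 0.68 ± 0.052. TTL, the tubulin tyrosine ligase, had -0.33 ± 0.044 and CLIP2, a plus-end linker protein, -0.25 ± 0.083.

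Of 36 growth cone and axon outgrowth genes 13 were called higher and 11 lower, with a median of 0.13, and upper quartile scaling gave 8 higher and 12 lower. PLXNA2 and NRP2, which encode semaphorin receptors, had 1.21 ± 0.076 and 0.62 ± 0.077. TAGLN3, a neuronal actin-binding protein of the calponin family, had -0.57 ± 0.086, and MARCKSL1, a relative of the kinase C substrate MARCKS, had -0.43 ± 0.056.

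Of 21 genes for kinases and phosphatases that act on these proteins 12 were called higher and 5 lower, with a median of 0.39, and 11 and 5 under upper quartile scaling. PPP3CA, the catalytic subunit of calcineurin, had 1.13 ± 0.10. MARK3, a kinase that phosphorylates tau and other microtubule-associated proteins, had 0.85 ± 0.048, while MARK4 of the same family had -0.63 ± 0.075. CDK5R1, which activates the neuronal kinase CDK5, had -0.24 ± 0.070.

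Of 13 genes for RNA-binding proteins known to bind mRNAs of this kind 3 were called higher and 3 lower, with a median of 0.080 that turned to -0.013 under upper quartile scaling. IGF2BP1 and ELAVL2, a neuronal Hu protein, had 0.66 ± 0.061 and 0.32 ± 0.077. PTBP2, the neuronal splicing repressor, had -0.39 ± 0.061. Of the neuroblast markers 5 were called higher and 3 lower in the same libraries, with GATA3 (1.78 ± 0.074) and HAND2 (0.97 ± 0.059) highest and DBH (-0.98 ± 0.21) and CHGA (-0.38 ± 0.076) lowest. PDGFRB was the only mesenchymal marker called, at 0.38. Each gene named here by its fold change from these lists had the opposite sign in pair 1.

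The genes whose 4 pair differences lay nearest to those of STMN2 were SLC17A5, TMEM35A and SEMA6C, at root mean square distances of 0.0957, 0.135 and 0.136 in log2 CPM among 10289 protein-coding candidates. SLC17A5, the lysosomal sialic acid transporter, differed by 1.01, -0.996, -0.83 and -0.57 in pairs 1 to 4, beside 1.03, -0.88, -0.98 and -0.57 for STMN2. The nearest to STMN4 were LAMB2, a laminin chain, NWD2 and MAML3, at 0.0418, 0.136 and 0.150. LAMB2 differed by -0.41, 0.42, 0.78 and 1.05, beside -0.40, 0.42, 0.76 and 1.13 for STMN4. Nearness over 4 pairs is a description with no test.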

How the data were processed

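RNA of 8 IMR32 libraries was measured by RNA-seq. The labels give the molecule as polyA RNA, while the library protocol in the labels names a small RNA kit. The authors deposited raw counts per Ensembl gene, per the file headers and values. Per the submitters' processing notes, FastQC 0.11.7, STAR 2.7.2b, edgeR 3.36.0, limma 3.50.3 and GRCh38 were used. The counting tool and the annotation are not given in the sources used here. Of the strand setting they give only the word reverse in the name of the counts. Gene names, positions and exons came from GENCODE 29 by Ensembl identifier. Counts were fitted with edgeR 4.0.16 in R 4.3.3 (filterByExpr, TMM, quasi-likelihood test, Benjamini-Hochberg over all tested genes, threshold 0.05). The 3 fits were 8 libraries with layout as a covariate, the 6 single-end libraries, and a treatment by layout interaction. Genes given in log2 CPM have a prior count of 1. Alternatives were other scalings, filters, DESeq2 1.42.0, limma voom (3.58.1), GC and length offsets, the replicate block and leaving out libraries.

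The 10 genes and the lists were chosen with earlier results of these data known. From each list the 2 higher and 2 lower called genes with the largest single-end change and a mean of at least 5 CPM were named, and for the called genes with the largest rise and fall the 3 nearest genes by pair differences. Some genes that this rule picks are not reported here. TH, SOX10, GFAP and PRRX1 were named as marker checks, and AF106564.1, AC107373.2 and STMN1P1 for shared reads. The count ratios, the motif search and some interaction alternatives were chosen after seeing the data. Deviations from group means of same-numbered single-end libraries correlated at 0.208, 0.388 and 0.157 for replicates 2, 3 and 4. Over 8 libraries these correlations were -0.527, -0.078, 0.159 and -0.108 for replicates 1 to 4. Differently numbered libraries were not compared, so whether the replicate numbers pair the libraries was not tested. Printed sequences are from RefSeq (GRCh38.p14).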

Additional observations from a re-analysis of the deposited data

Results flagged for a closer look

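The library labelled DMSO replicate 1 stood apart from the other DMSO libraries in NEFM, with a gap of 0.872 of the group's range (117.5 CPM against 168.5 to 176.0). The library labelled CR31B replicate 1 stood apart in STMN2, with a gap of 0.92 of the range (46.8 CPM against 21.0 to 23.0). Both gaps were above Dixon's 95% critical value for 4 libraries. Of 20 gene and group combinations 2 passed it, where chance gives about 1 in 20.

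The difference between CR31B and DMSO depended on layout, paired-end minus single-end, by 0.61 for STMN1, 1.84 for STMN2, 1.16 for MAPT and 1.06 for NEFM in log2 units (edgeR interaction term, Benjamini-Hochberg over all tested genes). The adjusted p was 0.0123 for STMN1 and 0.00246 for MAPT. In each of these genes the paired-end pair was higher with CR31B and the 3 single-end pairs lower. Layout cannot be told apart from any other property of the replicate 1 libraries.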

How the results depend on the processing

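Across 8 libraries, 0 of the 10 genes were called under each scaling, filter, tool, block and offset tried. The single-end libraries alone, which is also the fit without replicate 1, gave 5 of the 10 genes and 6901 of all genes. Leaving out libraries gave 0 to 5 of the 10 genes and 0 to 6920 of all genes, the highest without CR31B replicate 1. Without DMSO replicate 1 there were 6906.

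In the single-end libraries, leaving out 1 library gave 4 to 6 of the 10 genes and 5582 to 6727 of all genes. With the replicate block alone 6 of the 10 genes and 8540 of all genes were called, GAP43 being added, and the block changed no other call among the 10 in this comparison. The replicate block with GC and length offsets gave 9 of the 10 genes and 8484 of all genes, 45.4% of them higher. In the interaction it gave 8 of the 10 genes and 8462 of all genes. Over the other scalings, filters, tools, offsets and the block alone the interaction gave 4 to 6 of the 10 genes, with 6 for the block alone, among 8580 of all genes. The interaction gave 4 to 5 of the 10 genes and 6263 to 7468 of all genes without 1 single-end library. It could not be fitted without either replicate 1 library.

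Genes that were not called changed sign as follows, and the cause was not tested. In 8 libraries MAP2 was -0.0022 under upper quartile scaling, -0.037 with GC and length offsets and -0.034 with these and the replicate block. It was -0.042 without replicate 3, -0.018 without replicate 4, -0.043 without CR31B replicate 3 and -0.029 without DMSO replicate 4. Leaving out libraries moved MAP2 between -0.043 and 0.14, DCX between -0.13 and 0.024, and NEFL between -0.088 and 0.0077. DCX was 0.024 without replicate 2 and 0.014 without DMSO replicate 2, and NEFL 0.0077 without replicate 2. In the single-end libraries MAP2 was -0.023 under upper quartile scaling, -0.0053 with total counts, -0.073 with GC and length offsets and -0.070 with these and the replicate block. It was -0.033 without CR31B replicate 3 and -0.019 without DMSO replicate 4. The highest value on leaving out a library was 0.17, without DMSO replicate 2.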

Other observations

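Over all genes, those with AGAGAG in an annotated 5′ untranslated region (sense strand, GENCODE 29) were set beside those without it in the single-end libraries. Of 2968 tested genes with the motif 38.1% were called higher and 14.2% lower, and of 9920 without it 26.1% and 21.3%. The median log2 fold change was 0.13 with the motif and -0.0011 without it. Genes with the motif also had longer 5′ untranslated regions, with a median longest length of 511 bases against 285. The median GC content of whole transcripts was 49.9% against 50.1%, and that of the 5′ untranslated regions was not measured. The part of length in this difference was not tested. Among the 10 cytoskeleton genes, GAP43 had the most matches in a transcript.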
